A study of Homo sapiens with 9 samples.

Results

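GANAB and 8 further genes of glycoprotein folding in the endoplasmic reticulum (ER) were read on Affymetrix arrays of HCCC-9810 cells, a human cholangiocarcinoma (bile duct cancer) line. The members were every probe set whose only gene symbol was GANAB, PRKCSH, MOGS, CANX, CALR, PDIA3, UGGT1, MAN1B1 or LMAN1. They made up 34 of 49395 probe sets and 9 of 18132 genes with a probe set of their own. GANAB was chosen by its rise in si-MBD5 cells on these same arrays, so its values are given as a description and carry no test. The other 8 genes were named for their role, with earlier results of these data known.

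The 9 arrays fell into 3 groups of 3, labelled as biological replicates: cells transfected with BAP1 siRNAs (si-BAP1), cells transfected with MBD5 siRNAs (si-MBD5), and control cells (si-Control). BAP1 is a nuclear deubiquitinase and MBD5 a methyl-CpG-binding domain protein. All groups were the same cell line, no other allele or agent is named, and the labels give no time after transfection. Titles name the control si-Control and other labels name it a control shRNA, and which was used is not settled. P-values set differences between groups against the spread between these cultures of 1 line.

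Proteins that enter the ER receive a preassembled glycan on asparagine. Glucosidase I removes its outermost glucose and glucosidase II the next, which leaves a single glucose that the lectin chaperones calnexin and calreticulin bind. These hold the glycoprotein beside the thiol oxidoreductase ERp57, and glucosidase II then releases it by taking off the last glucose. UGGT1 puts a glucose back on a protein that is still misfolded, a mannosidase marks proteins that stay too long, and the cargo receptor LMAN1 carries folded glycoproteins towards the Golgi. The list follows that order: MOGS is glucosidase I, GANAB and PRKCSH are the catalytic and regulatory subunits of glucosidase II, CANX and CALR encode calnexin and calreticulin, and PDIA3 encodes ERp57. MAN1B1 is the ER mannosidase.

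Bases before the transcript start were printed for GANAB, whose probe sets read highest against control, for CANX, the gene whose probe sets fell in si-BAP1 cells, and for CALR, the soluble partner of CANX that did not fall with it. Each stretch is 250 bases, 5′ to 3′ on the strand of the gene, from RefSeq on GRCh38.p14: chr11:62646614-62646863 on the minus strand for GANAB, chr5:179698679-179698928 on the plus strand for CANX (1 of 4 listed starts) and chr19:12938359-12938608 on the plus strand for CALR. Capitals mark the ER stress element (ERSE: CCAAT, any 9 bases, then CCACG, on either strand) in CANX and CALR, and the CCAAT boxes in GANAB.
GANAB: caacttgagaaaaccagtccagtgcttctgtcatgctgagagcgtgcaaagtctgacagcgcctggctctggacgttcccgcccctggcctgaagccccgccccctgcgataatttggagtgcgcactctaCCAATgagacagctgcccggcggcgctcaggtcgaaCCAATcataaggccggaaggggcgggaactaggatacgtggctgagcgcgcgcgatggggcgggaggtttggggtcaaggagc
CANX: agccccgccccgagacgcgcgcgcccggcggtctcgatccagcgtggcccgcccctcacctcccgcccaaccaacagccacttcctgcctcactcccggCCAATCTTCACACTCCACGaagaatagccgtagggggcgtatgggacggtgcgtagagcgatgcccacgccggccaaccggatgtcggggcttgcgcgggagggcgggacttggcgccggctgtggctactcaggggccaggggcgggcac
CALR: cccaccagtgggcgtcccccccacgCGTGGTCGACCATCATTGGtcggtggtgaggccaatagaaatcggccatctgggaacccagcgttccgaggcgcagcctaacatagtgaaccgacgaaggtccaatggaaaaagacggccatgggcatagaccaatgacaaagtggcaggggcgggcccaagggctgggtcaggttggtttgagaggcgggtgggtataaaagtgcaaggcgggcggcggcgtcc

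The ERSE is the element through which ATF6 and XBP1 are known to act on ER chaperone genes. A window of 250 bases before to 50 after the start was listed for 7 of the 9 members, 12 windows in all. An exact ERSE stood in 2 of these 7 genes. In CANX it was a single site (chr5:179698778-179698796) that 3 of the 4 windows share. In CALR it lay on the opposite strand (chr19:12938384-12938402), 225 to 207 bases before the start. An ERSE was held by 0.0769% of all 35116 windows listed, which is 25 of 27305 genes or 0.0916%. GANAB held no ERSE and 2 CCAAT boxes, a motif found in 34.6% of all windows. The related ERSE-II (ATTGG, any base, CCACG) and UPRE core (TGACG followed by TGG), searched on both strands, matched in 0 of the 12 windows, and in 0.0541% and 0.729% of all windows. These are matches of letters and were not tested against the expression values.

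Values are the deposited linear intensity, 1 per probe set and array. Fold changes were taken between group means on the log2(intensity + 16) scale and come with their standard error (SE); because of the 16 they understate the change of dim probe sets. All adjusted p-values come from 1 limma fit of the 9 arrays over 27195 probe sets above the 40th percentile of mean intensity (25.51), with Benjamini-Hochberg adjustment over all of them and a threshold of 0.05. Of the members 32 probe sets lay above that intensity, 27 of them outside GANAB. A MOGS probe set (mean 20.6) and an LMAN1 probe set (mean 13.3) lay below it and were not tested. Probe sets of a gene were read from the same RNA, so they are not replicates of a condition. Those with names ending in _s_at or _x_at can match several transcripts or genes. Among the members they include the only tested MOGS probe set, the brightest of CANX, PDIA3 and MAN1B1, and a UGGT1 probe set.

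The correlation between arrays was 0.9977 to 0.9989 within groups (9 pairs) and 0.9958 to 0.9982 across them (27 pairs). The brighter MBD5 probe set, at the 11.89 percentile of the array, read 6.20, 6.20 and 6.11 in si-MBD5 cells against 7.16, 7.06 and 6.90 in si-Control cells, too near the bottom to check that knockdown; BAP1 was not analysed here. Of 9 biliary epithelial markers on the arrays 6 lay above the filter (KRT7, KRT8, KRT18, MUC1, CLDN4 and SOX9), while KRT19, EPCAM and CDH1 lay below it. Of the markers of other cells, 3 of 8 hepatocyte, 4 of 8 fibroblast or endothelial and 2 of 7 immune genes were above it. The summed intensities of the biliary, hepatocyte and immune lists overlapped between each knockdown and control. Between the knockdowns the biliary sums did not overlap, at 3973.2 to 4113.7 in si-BAP1 and 3674.0 to 3945.3 in si-MBD5 cells. Sums of the fibroblast and endothelial list were 228.0 to 251.7 in si-BAP1, 231.2 to 256.8 in si-MBD5 and 222.9 to 230.6 in si-Control cells. These did not overlap between si-MBD5 and control. The part of either difference in the results was not tested. The ACTB ratio of 3′ to 5′ signal, a measure of RNA integrity, was 10.8 to 11.4 in si-BAP1 cells, 11.6 to 13.0 in si-MBD5 cells and 11.8 to 12.8 in si-Control cells. It was lower in every si-BAP1 array than in every control array and every si-MBD5 array. Its part in the si-BAP1 results, against control or against si-MBD5, was not tested. The same ratio for GAPDH was 1.070 to 1.092 in si-BAP1, 1.066 to 1.074 in si-MBD5 and 1.032 to 1.084 in si-Control cells, and each knockdown overlapped control. On every array the ACTB ratio lay far above the GAPDH ratio, and the reason was not tested.

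**Figure D1:**
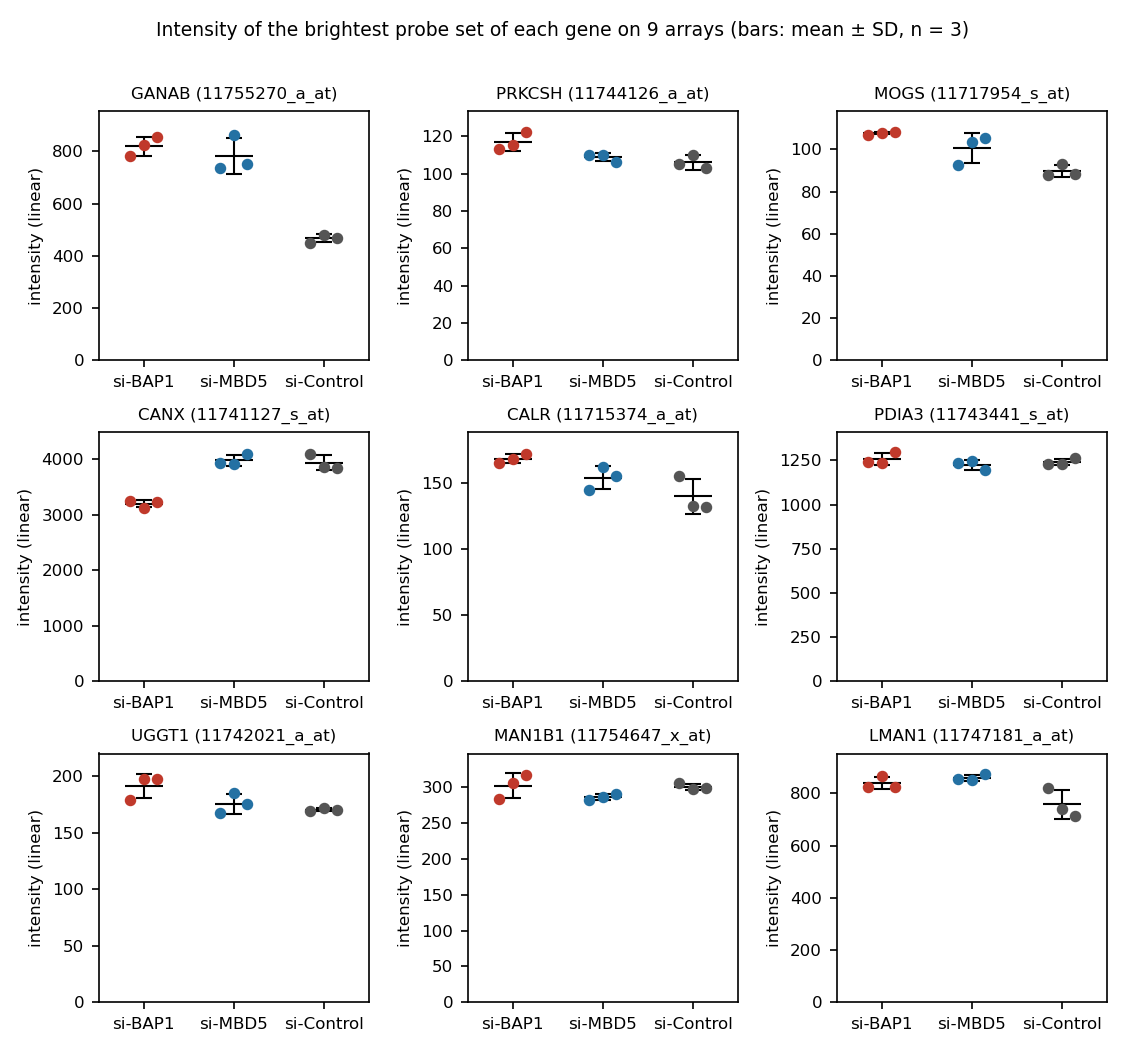
Deposited intensity (linear, vertical axis from 0) of the brightest probe set of each of the 9 genes in 3 si-BAP1, 3 si-MBD5 and 3 si-Control arrays; points are arrays, bars the mean ± SD. GANAB is higher in all arrays of both knockdowns than in the control arrays, and CANX is lower in the si-BAP1 arrays than in the other 6.

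GANAB, the catalytic subunit of glucosidase II (chromosome 11, 62624829 to 62646613, GRCh38.p14), read well above control in both knockdowns. Its brightest probe set, 11755270_a_at, gave 781, 823 and 855 in si-BAP1 cells and 738, 862 and 750.2 in si-MBD5 cells, against 450.5, 481 and 470.5 in si-Control cells. All 6 knockdown arrays lay above the 3 control arrays, and the knockdown groups overlapped each other. The means were 819.9 ± 37 in si-BAP1, 783 ± 68 in si-MBD5 and 467 ± 16 in si-Control cells (SD, n = 3 each). On the log2 scale the difference from control was 0.79 (SE 0.056, 1.73-fold) in si-BAP1 and 0.72 (SE 0.056, 1.65-fold) in si-MBD5 cells. In a whole culture, more cells with a transcript and more transcript per cell cannot be told apart.

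The other 4 GANAB probe sets gave the same order of groups. The dimmest, 11738988_a_at, read 153.7, 144.6 and 155.6 in si-BAP1 cells and 141.8, 143 and 147 in si-MBD5 cells, against 85.5, 92.3 and 84.7 in si-Control cells. Over all 5 probe sets the log2 difference from control was 0.65 to 0.79 in si-BAP1 cells and 0.56 to 0.72 in si-MBD5 cells, and no control array reached a knockdown array in any of them. The knockdowns shared the control arrays, so these are not separate observations of a rise. Between the knockdowns the 5 differences, si-BAP1 minus si-MBD5, were 0.039 to 0.087 log2 and the arrays overlapped in each. The smallest single-array reading was 143.9% of the control mean, in si-MBD5 replicate 1 on 11738989_a_at. That probe set and 11738990_x_at come from the same source sequence, so they share a target.

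PRKCSH, the regulatory subunit that keeps the GANAB protein in the ER (chromosome 19, 11435635 to 11450968), has 1 probe set of its own. It read 113, 115 and 122 in si-BAP1 cells and 110.2, 110.2 and 106 in si-MBD5 cells, against 105, 110.2 and 103 in si-Control cells. The si-BAP1 arrays lay above the control arrays by a small margin, and the si-MBD5 arrays overlapped them. Neither difference passed: log2 0.12 (SE 0.046, limma adjusted p = 0.0763) in si-BAP1 and 0.035 (SE 0.046, limma adjusted p = 0.691) in si-MBD5 cells. The 95% interval for si-MBD5 ran from -0.064 to 0.13.

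MOGS, glucosidase I (chromosome 2, 74461057 to 74465382), rose in si-BAP1 cells on its only tested probe set. That is an _s_at probe set, whose probes can match several transcripts or genes. Probe set 11717954_s_at read 107.0, 107.7 and 108.0 in si-BAP1 cells and 92.4, 103 and 106 in si-MBD5 cells, against 87.6, 93.0 and 88.3 in si-Control cells. The si-BAP1 arrays were tightly grouped above all controls, while si-MBD5 replicate 1 fell within the control range. The log2 fold change was 0.23 (SE 0.051, limma adjusted p = 0.00591) in si-BAP1 and 0.14 (SE 0.051, limma adjusted p = 0.0936) in si-MBD5 cells. Between the knockdowns the difference was 0.087 log2 (95% interval -0.022 to 0.20, limma adjusted p = 0.357).

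CANX, the membrane-bound lectin chaperone calnexin (chromosome 5, 179678656 to 179731641), fell in si-BAP1 cells on every one of its 9 probe sets. Its brightest probe set, 11741127_s_at, at the 99.4 percentile of the array, read 3247, 3133 and 3231 in si-BAP1 cells and 3933, 3919 and 4104 in si-MBD5 cells, against 4096, 3869.8 and 3853 in si-Control cells. The si-BAP1 arrays were the lowest 3 of the 9, and the si-MBD5 and control arrays overlapped. The log2 fold change was -0.30 in si-BAP1 cells (SE 0.031, 1.23-fold lower, limma adjusted p = 1.83e-05) and 0.017 in si-MBD5 cells (SE 0.031, limma adjusted p = 0.788).

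Among the 9 CANX probe sets the fall in si-BAP1 cells ranged from -0.21 to -0.51 log2, with all si-BAP1 arrays below all control arrays in each. Not all 9 have a source sequence of their own. 11727425_s_at and 200068_PM_s_at share a source sequence, and so do 11727423_a_at and 11727424_s_at. The deepest falls were on 11727421_a_at and 11727422_s_at, which also come from a common source sequence. The first of these read 554, 621 and 602 in si-BAP1 cells and 792, 823 and 805 in si-MBD5 cells, against 873, 849.9 and 834 in si-Control cells. Its fold change in si-BAP1 cells was -0.51 log2 (95% interval -0.61 to -0.42, limma adjusted p = 3.02e-06), and the interval did not meet that of the brightest probe set (-0.36 to -0.23). On these same 2 probe sets the si-MBD5 arrays also lay below every control array, by -0.078 and -0.11 log2, without passing (limma adjusted p = 0.28 and 0.121). No CANX probe set passed in si-MBD5 cells.

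The direct comparison separated the knockdowns at CANX. It was lower in si-BAP1 than in si-MBD5 cells on 8 of 9 probe sets, by -0.21 to -0.44 log2, and the arrays did not overlap on any of the 9. The exception was 11745457_a_at, at -0.15 log2 (SE 0.051, limma adjusted p = 0.113). Of the dimmer probe sets, 11727423_a_at lost its call against control without si-BAP1 replicate 3 or without si-Control replicate 3 (limma adjusted p up to 0.0604) and against si-MBD5 without si-BAP1 replicate 1 or 3, si-MBD5 replicate 1 or 3, or si-Control replicate 2, and with the replicate number as a block (limma adjusted p up to 0.139). 11727424_s_at lost its call against si-MBD5 without si-BAP1 replicate 1 or si-MBD5 replicate 1 (limma adjusted p up to 0.0673).

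**Figure D2:**
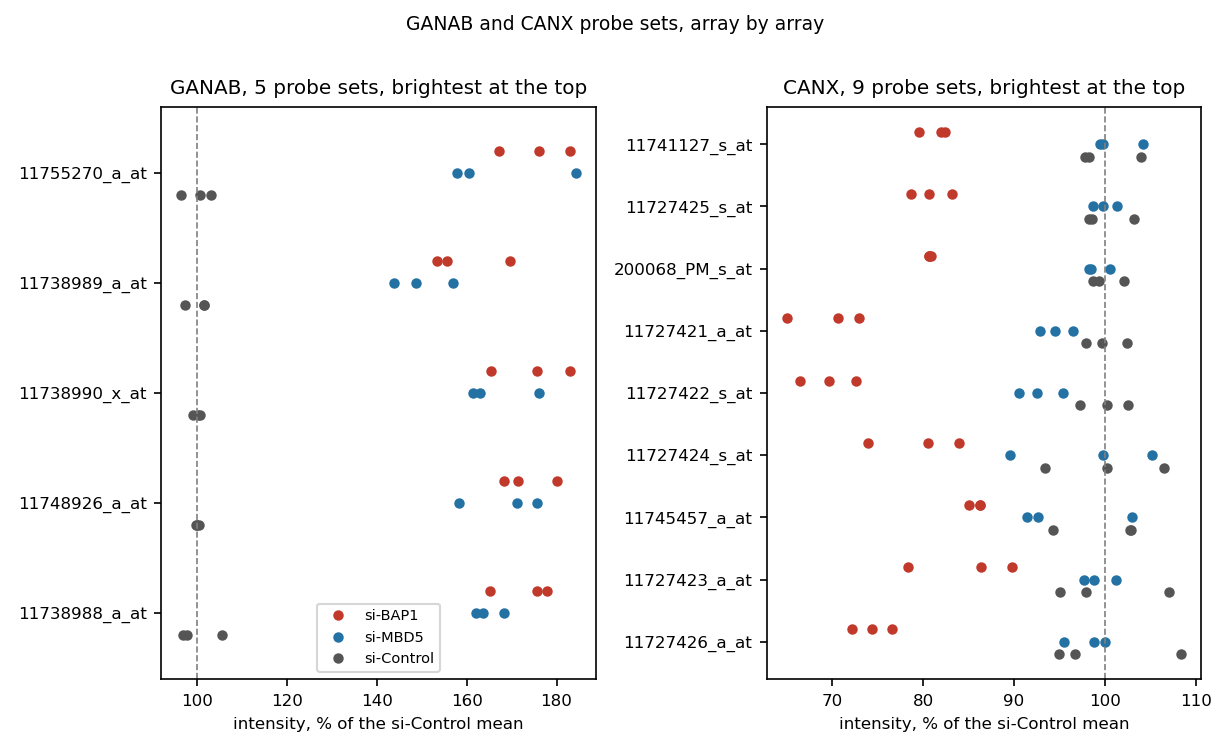
Intensity of each GANAB probe set (left) and CANX probe set (right) on every array, in percent of the si-Control mean of that probe set; within a row si-BAP1 is drawn above si-MBD5 and si-Control. All GANAB knockdown readings lie at 143.9% or higher, and all CANX si-BAP1 readings at 89.8% or lower.

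CALR, the soluble lectin chaperone calreticulin (chromosome 19, 12938609 to 12944489), moved opposite to CANX in si-BAP1 cells. Its brighter probe set, 11715374_a_at, read 165, 169 and 172 in si-BAP1 cells and 145, 162 and 156 in si-MBD5 cells, against 156, 133 and 132 in si-Control cells. The si-BAP1 arrays lay above all controls and the si-MBD5 arrays overlapped them, with control replicate 1 well above the other controls. CALR rose by 0.25 log2 in si-BAP1 cells (SE 0.060, limma adjusted p = 0.0102), but no longer passed when si-Control replicate 2 was left out (limma adjusted p = 0.0559). In si-MBD5 cells it differed by 0.13 log2 (SE 0.060, limma adjusted p = 0.205). The dimmer CALR probe set, 11715375_x_at, lay just above the filter (mean 28.8) and gave -0.0037 log2 in si-BAP1 cells (limma adjusted p = 0.974), so the rise rests on 1 of 2 probe sets.

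PDIA3, the oxidoreductase ERp57 that works with both lectins (chromosome 15, 43746438 to 43773278), had close levels in the 3 groups on its bright probe set. 11743441_s_at read 1242, 1237 and 1298 in si-BAP1 cells and 1237, 1245 and 1193 in si-MBD5 cells, against 1229.5, 1228 and 1262 in si-Control cells. All 3 groups overlapped. The differences from control were 0.022 log2 (95% interval -0.050 to 0.094, limma adjusted p = 0.719) in si-BAP1 and -0.017 log2 (-0.088 to 0.055, limma adjusted p = 0.806) in si-MBD5 cells. The dimmer 11743440_at was lower in si-MBD5 cells by -0.16 log2 (limma adjusted p = 0.0283), with 70.7, 72.3 and 77.1 against 82.6, 85.3 and 84.5 in si-Control cells. That call was lost without si-MBD5 replicate 1 or 2, or without any single control array (limma adjusted p up to 0.103), and also with no filter or only the 2 groups compared.

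UGGT1, the folding sensor that reglucosylates misfolded glycoproteins (chromosome 2, 128091200 to 128195677), was slightly higher in si-BAP1 cells. Probe set 11742021_a_at read 179, 198 and 198 in si-BAP1 cells and 167, 185 and 175 in si-MBD5 cells, against 169, 172 and 171 in si-Control cells. All si-BAP1 arrays lay above the controls on each of its 3 probe sets, and the si-MBD5 arrays overlapped the controls on each. The rise was 0.15 log2 on 11742021_a_at (SE 0.050, limma adjusted p = 0.0478), 0.17 on 11729795_s_at (SE 0.047, limma adjusted p = 0.023), and on 11729794_at the difference was 0.16 without passing (limma adjusted p = 0.0524). In si-MBD5 cells the 3 differences were -0.0041 to 0.038 log2. The first call was lost without si-BAP1 replicate 2 or 3 or any single control array (limma adjusted p up to 0.166) and with no filter, and the second without any single si-BAP1 array or si-Control replicate 1 or 3 (limma adjusted p up to 0.0908).

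MAN1B1, the mannosidase that trims the glycan of proteins held in the ER (chromosome 9, 137086985 to 137109183), did not pass in si-BAP1 cells on any of its 4 probe sets, with log2 differences of -0.042 to 0.066. Its brightest, 11754647_x_at, read 283, 305 and 317 in si-BAP1 cells and 281, 286 and 289 in si-MBD5 cells, against 305, 297 and 298 in si-Control cells. The si-MBD5 arrays lay below the controls, but the difference of -0.069 log2 did not pass (limma adjusted p = 0.375). 11721458_s_at was lower in si-MBD5 cells by -0.18 log2 (SE 0.053, limma adjusted p = 0.0469), a call lost without si-BAP1 replicate 3, si-MBD5 replicate 1 or 3, or si-Control replicate 1 or 2 (limma adjusted p up to 0.154), and also with no filter, no intensity trend or only the 2 groups compared.

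LMAN1, the mannose-binding receptor for export from the ER (chromosome 18, 59327823 to 59359265), rose in si-BAP1 cells on all 5 probe sets above the filter and in si-MBD5 cells on 2 of them. The steadier of its bright probe sets, 11724211_a_at, read 752, 774 and 739.5 in si-BAP1 cells and 767, 747 and 765 in si-MBD5 cells, against 666, 661 and 639 in si-Control cells. All 6 knockdown arrays were above the 3 controls and the knockdowns overlapped. It rose by 0.20 log2 (SE 0.035, limma adjusted p = 0.00112) in si-BAP1 and by 0.21 log2 (SE 0.035, limma adjusted p = 0.0017) in si-MBD5 cells.

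The brightest LMAN1 probe set, 11747181_a_at, read 826, 868 and 826 in si-BAP1 cells and 857, 850.5 and 873 in si-MBD5 cells, against 821, 739.7 and 714 in si-Control cells. Control replicate 1 came within a few units of the si-BAP1 arrays. The log2 fold changes were 0.15 in si-BAP1 (limma adjusted p = 0.042) and 0.18 in si-MBD5 cells (limma adjusted p = 0.0227). The si-BAP1 call was lost without any single si-BAP1 array, si-MBD5 replicate 1, or si-Control replicate 2 or 3 (limma adjusted p up to 0.159), and the si-MBD5 call without si-MBD5 replicate 1 or 3 or si-Control replicate 2 or 3 (limma adjusted p up to 0.0998). With only the 2 groups compared both calls were lost, and the si-BAP1 call also with no filter, with the replicate block and with no intensity trend; in all it was lost under 10 of 20 alternatives and the si-MBD5 call under 5 of 20. Over the 5 probe sets the rise in si-BAP1 cells was 0.15 to 0.29 log2, and the differences in si-MBD5 cells were 0.075 to 0.21. No LMAN1 probe set passed between the knockdowns, where the differences were -0.034 to 0.21 log2.

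**Figure D3:**
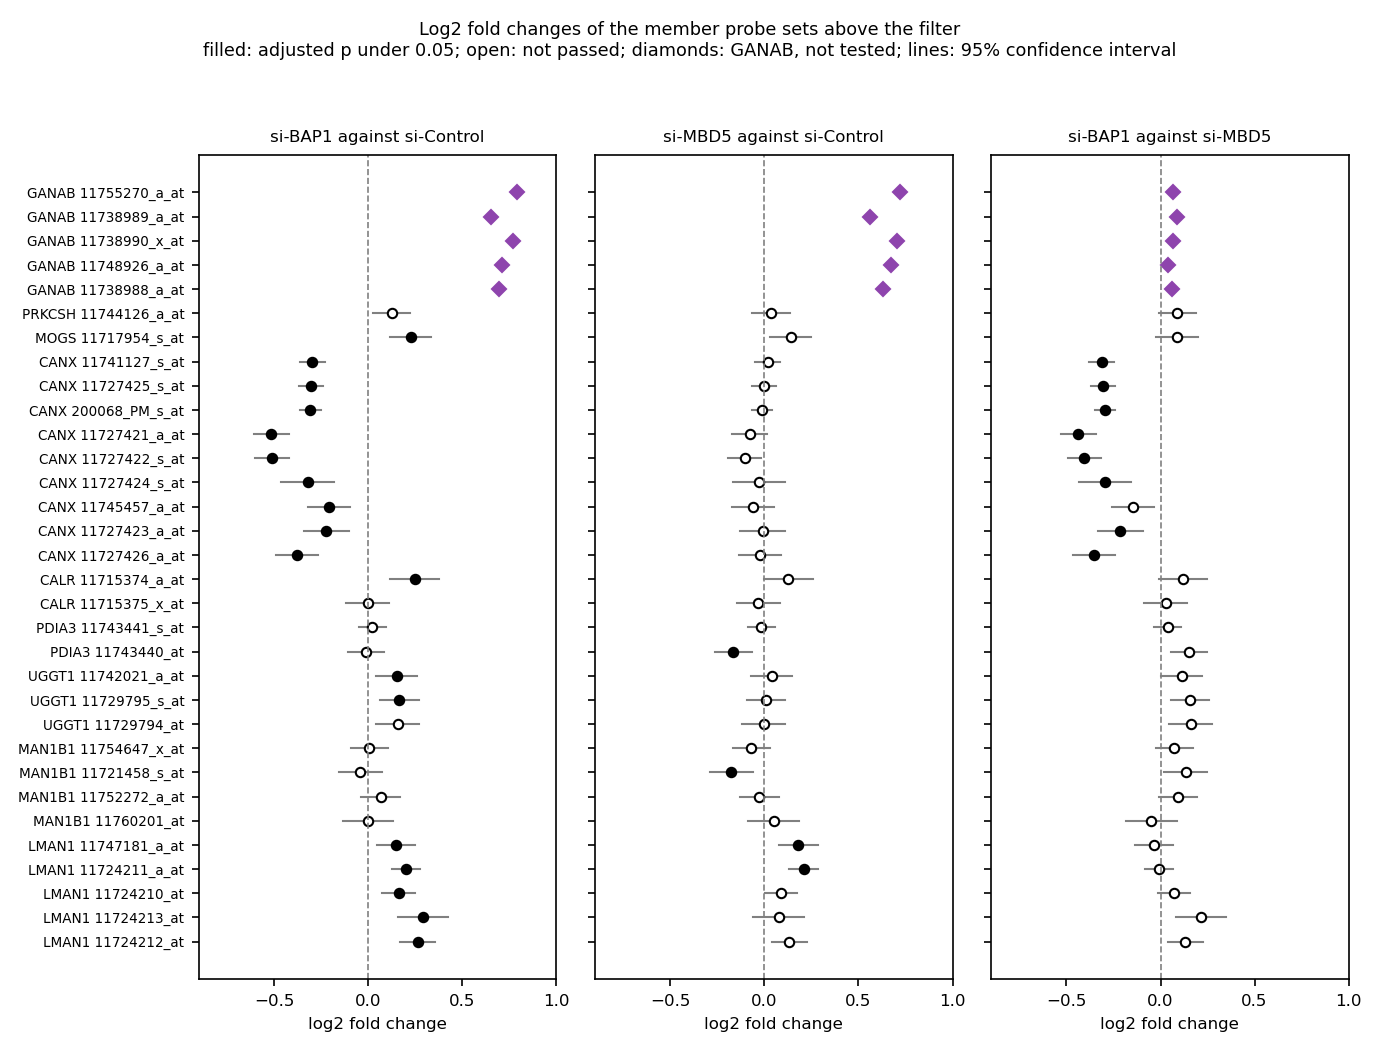
Log2 fold changes (horizontal axis) of the 32 member probe sets above the filter for each knockdown against si-Control (left and middle) and for si-BAP1 against si-MBD5 (right). Filled points passed the limma test, open points did not, lines are 95% intervals, and diamonds are GANAB, which was not tested; the 9 CANX points lie left of 0 in the si-BAP1 panel.

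Counted over the 8 genes without GANAB, 9 of 27 tested probe sets were higher and 9 lower in si-BAP1 cells, where 11.6% of all 27195 tested probe sets were higher and 8.88% lower. All 9 that were lower belong to CANX, and the 9 that were higher to LMAN1 (5), UGGT1 (2), MOGS (1) and CALR (1). The 9 higher calls became 6 without si-BAP1 replicate 2 or 3 or without si-Control replicate 2 or 3. The arrays of the groups did not overlap upwards in 11 of 27 and downwards in 9 of 27, against 20.6% and 15.2% of all probe sets. By genes, read on the brightest probe set, 4 of 8 were higher and 1 lower (CANX), against 11.7% and 10.7% of all 12434 genes. Among these 4, the calls of UGGT1, LMAN1 and CALR were each lost on leaving out certain single arrays, and that of MOGS rests on an _s_at probe set. The median over the 27 probe sets was 0.0055 log2, and 0.0086 over all probe sets tested.

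In si-MBD5 cells 2 of 27 probe sets were higher, both of LMAN1, and 2 lower, of PDIA3 and MAN1B1, shares near the 6.09% and 6.8% of all probe sets called. The arrays did not overlap upwards in 4 and downwards in 5 of 27, against 13.4% and 14.7% of all probe sets. By genes 1 of 8 was higher (LMAN1) and 0 lower, against 6.76% and 8.09% of all genes. The median was -0.0041 log2, and 0.0003 over all probe sets tested. Between si-BAP1 and si-MBD5 cells 0 of 27 were higher and 8 lower, all of CANX, against 4.66% and 3.16% of all probe sets. The arrays did not overlap in 9 upwards and in 9 downwards, against 14.8% and 8.56%. Probe sets of a gene share their RNA and CANX alone has 9 of the 27, so these counts weigh genes unequally.

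Over the 9 arrays, the probe sets of other genes that ran closest to the brightest GANAB probe set were those of EMP2, a tetraspan membrane protein (Pearson r = 0.9945), UBE3A, a ubiquitin ligase (0.9929), PRDX4, a peroxiredoxin of the ER (0.9923), KDM2B, a histone demethylase (0.9904), and PDSS2, an enzyme of coenzyme Q synthesis (0.9896). These correlations describe 9 arrays that share their scaling and fall into groups, and they follow the step between knockdown and control. PRDX4 read 2637, 2743 and 2679 in si-BAP1 cells and 2501, 2646 and 2453 in si-MBD5 cells, against 1779, 1863 and 1871 in si-Control cells. EMP2 read 289, 314 and 304 in si-BAP1 cells and 268, 305 and 263.5 in si-MBD5 cells, against 165, 176 and 178 in si-Control cells. The knockdown arrays of both genes all lay above the controls, which follows from choosing these genes for their likeness to GANAB. The other GANAB probe sets had r of 0.978 to 0.9952. Among the members r was 0.8779 for MOGS, 0.7599 for CALR, 0.7553 for LMAN1, 0.6861 for UGGT1, 0.6844 for PRKCSH, 0.1623 for PDIA3, -0.1833 for MAN1B1 and -0.5227 for CANX.

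Genes upstream of the cycle build the glycan and attach it. Of 24 tested genes of the lipid-linked oligosaccharide and the oligosaccharyltransferase, 2 were higher and 1 lower in si-BAP1 cells, and 0 higher and 2 lower in si-MBD5 cells. Over all 12434 genes 11.7% were higher and 10.7% lower in si-BAP1 cells, and 6.76% higher and 8.09% lower in si-MBD5 cells. The median log2 fold change of the 24 was 0.015 in si-BAP1 and -0.040 in si-MBD5 cells, and it was 0.0005 and 0.0001 over all genes. ALG9, a mannosyltransferase, rose in si-BAP1 cells to 310.5, 314 and 321 against 242, 248 and 242 in si-Control cells (log2 0.35, SE 0.041). It read 222, 233.5 and 217 in si-MBD5 cells (log2 -0.12, limma adjusted p = 0.0884). The ALG9 call came from an _s_at probe set, whose probes can match several transcripts or genes; on probe sets not shared in this way (neither _s_at nor _x_at) the value was 0.052 log2 (limma adjusted p = 0.513). RPN1, a subunit of the transferase, rose by 0.18 log2 in si-BAP1 cells (limma adjusted p = 0.0118), a call lost without si-BAP1 replicate 2 or 3 (limma adjusted p up to 0.0548) and on unshared probe sets (limma adjusted p = 0.0683). DPAGT1, which starts the glycan, fell by 0.16 log2 in si-BAP1 and by 0.18 log2 in si-MBD5 cells, with the sign turned on its brightest unshared probe set (0.17 and 0.11 log2, limma adjusted p = 0.0688 and 0.328). DAD1, another subunit, fell by 0.13 log2 in si-MBD5 cells (limma adjusted p = 0.0367). Single arrays decided 2 of these calls in si-MBD5 cells: DPAGT1 was lost without si-MBD5 replicate 1 or si-Control replicate 2, which also ended its si-BAP1 call (limma adjusted p up to 0.0567 and 0.0507), and DAD1 without si-BAP1 replicate 2, si-MBD5 replicate 1 or 2, or si-Control replicate 1 or 3 (limma adjusted p up to 0.13). DAD1 was also lost with quantile normalization, no filter, no intensity trend, only the 2 groups compared or array weights.

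Of 25 other ER chaperones and oxidoreductases, 3 were higher and 2 lower in si-BAP1 cells, and 2 higher and 6 lower in si-MBD5 cells, against 11.7% and 10.7% of all genes in si-BAP1 and 6.76% and 8.09% in si-MBD5 cells. MESD, a chaperone of LDL receptor family proteins, rose in both knockdowns, with 466, 479 and 473 in si-BAP1 cells and 452, 451 and 486 in si-MBD5 cells, against 322, 329.8 and 318.5 in si-Control cells. Its log2 fold change was 0.53 (SE 0.041) in si-BAP1 and 0.50 (SE 0.041) in si-MBD5 cells, without overlap of either knockdown with control. Of the 3 other MESD probe sets above the filter, 1 gave the call in each knockdown. PDIA5, a disulfide isomerase, rose in si-BAP1 cells by 0.31 log2 (limma adjusted p = 0.000415) and differed by 0.15 log2 in si-MBD5 cells (limma adjusted p = 0.0665). DNAJB9, a cochaperone of BiP, read 449, 467.5 and 470.4 in si-MBD5 cells against 528, 549.9 and 621.5 in si-Control cells (log2 -0.28, limma adjusted p = 0.00823). In si-BAP1 cells the DNAJB9 difference was -0.10 log2 and did not pass (limma adjusted p = 0.286). DNAJB9 was read on an _s_at probe set and had no other above the filter. DNAJB11, another BiP cochaperone, fell by 0.22 log2 in si-BAP1 (limma adjusted p = 0.00989) and by 0.20 log2 in si-MBD5 cells (limma adjusted p = 0.0258). The DNAJB11 calls were lost without si-BAP1 replicate 1 (limma adjusted p = 0.051), and in si-MBD5 cells without si-MBD5 replicate 3 or any single control array (limma adjusted p up to 0.0865).

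Among 13 paralogs and partners of the members, 2 were higher and 2 lower in si-BAP1 cells, and 3 higher and 3 lower in si-MBD5 cells, where the shares of all genes were 11.7% and 10.7% in si-BAP1 and 6.76% and 8.09% in si-MBD5 cells. SURF4, another export receptor of the ER, read 1749, 1709 and 1731 in si-BAP1 cells and 1697, 1722 and 1808 in si-MBD5 cells, against 1532, 1533 and 1531 in si-Control cells. It rose by 0.17 log2 in si-BAP1 (limma adjusted p = 0.00131) and by 0.18 log2 in si-MBD5 cells (limma adjusted p = 0.0018), and the si-MBD5 call was lost on unshared probe sets (limma adjusted p = 0.0699). TMED10, a cargo receptor of early secretory vesicles, read 751, 739 and 746 in si-BAP1 cells and 1049, 1039 and 993 in si-MBD5 cells, against 916, 965 and 925 in si-Control cells. The si-BAP1 arrays were the lowest and the si-MBD5 arrays the highest, with -0.45 log2 between the knockdowns (SE 0.035, limma adjusted p = 8.19e-06); on its brightest unshared probe set the si-BAP1 value against control was 0.021 log2 (limma adjusted p = 0.832) and the si-MBD5 value 0.011 log2 (limma adjusted p = 0.931). The si-MBD5 call of TMED10 was also lost without si-MBD5 replicate 1 or 2 or si-Control replicate 1 or 3 (limma adjusted p up to 0.0938), with no intensity trend and with only the 2 groups compared, and 0 of the 3 other TMED10 probe sets gave it. MCFD2, the calcium-binding partner of LMAN1, fell in si-BAP1 cells by 0.23 log2 (limma adjusted p = 0.0495), where LMAN1 itself rose. The MCFD2 call was lost without any single si-BAP1 array, si-MBD5 replicate 1, or si-Control replicate 2 or 3 (limma adjusted p up to 0.192), and on unshared probe sets the value was -0.0045 log2 (limma adjusted p = 0.963). It was also lost with no filter and no intensity trend, and 0 of the 3 other MCFD2 probe sets gave it. UGGT2, the paralog of UGGT1, fell in si-MBD5 cells by 0.17 log2 (limma adjusted p = 0.0463), a call lost without 7 of the 9 arrays in turn, the exceptions being si-BAP1 replicate 2 and si-MBD5 replicate 2 (limma adjusted p up to 0.152), and also with no filter, the replicate block, no intensity trend or only the 2 groups compared. In si-BAP1 cells the same UGGT2 probe set gave -0.13 log2 without passing (limma adjusted p = 0.0924). On its brightest unshared probe set UGGT2 fell in both, by 0.27 log2 in si-BAP1 (limma adjusted p = 0.000729) and by 0.24 log2 in si-MBD5 cells (limma adjusted p = 0.00326).

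Of 21 genes that remove misfolded glycoproteins, 3 were higher and 3 lower in si-BAP1 cells, against 11.7% and 10.7% of all genes. In si-MBD5 cells 1 of 21 was higher and 4 lower, against 6.76% and 8.09% of all genes. The median was 0.032 log2 in si-BAP1 and -0.069 log2 in si-MBD5 cells. HERPUD1, a membrane protein of the degradation complex, read 665, 683 and 699 in si-BAP1 cells and 735, 719.5 and 755 in si-MBD5 cells, against 821.5, 795 and 831.5 in si-Control cells. It fell by 0.25 log2 in si-BAP1 (limma adjusted p = 0.000253) and by 0.15 log2 in si-MBD5 cells (limma adjusted p = 0.0188), and the si-MBD5 call was lost without si-MBD5 replicate 1 or 2 or si-Control replicate 1 or 3 (limma adjusted p up to 0.0637). EDEM2, which acts on mannose trimming, fell by 0.24 log2 in si-BAP1 (limma adjusted p = 0.00202) and by 0.21 log2 in si-MBD5 cells (limma adjusted p = 0.00917). UBE2J1, a ubiquitin-conjugating enzyme of the ER membrane, read 283, 291 and 271 in si-BAP1 cells and 212, 205 and 192 in si-MBD5 cells, against 238, 237 and 249.5 in si-Control cells. The groups did not overlap, and the difference between the knockdowns was 0.44 log2 (SE 0.047, limma adjusted p = 8e-05); on its brightest unshared probe set the si-MBD5 value against control was 0.014 log2 (limma adjusted p = 0.887). NGLY1, the cytosolic enzyme that strips glycans, fell by 0.17 log2 in si-BAP1 and by 0.16 log2 in si-MBD5 cells, without passing on unshared probe sets (limma adjusted p = 0.319 and 0.466), and its si-MBD5 call was lost without si-Control replicate 3 (limma adjusted p = 0.0555).

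Past the ER, 10 Golgi genes were tested: mannosidases, GlcNAc transferases and the fucosyltransferase FUT8. Of these 2 were higher and 1 lower in si-BAP1 cells, and 1 higher and 3 lower in si-MBD5 cells. The shares of all genes were 11.7% and 10.7% in si-BAP1 and 6.76% and 8.09% in si-MBD5 cells. MGAT4A, which adds a branch to the glycan, was dim but separated, with 34.8, 39.8 and 37.4 in si-BAP1 cells and 31.0, 41.0 and 34.6 in si-MBD5 cells, against 21.4, 21.2 and 22.0 in si-Control cells. Its log2 difference from control was 0.51 in si-BAP1 and 0.45 in si-MBD5 cells. The control arrays lay below the filter intensity (25.51), so MGAT4A was tested only through its high knockdown arrays. These values are therefore a description, though the counts above include MGAT4A as higher in both knockdowns. MAN2A2, a mannosidase II, fell by 0.24 log2 in si-BAP1 (limma adjusted p = 0.00749) and by 0.27 log2 in si-MBD5 cells (limma adjusted p = 0.0069). Of its 2 other probe sets 1 gave the si-BAP1 call and 0 the si-MBD5 call. Its paralog MAN2A1 read 85.1, 92.7 and 82.7 in si-MBD5 cells against 104, 105 and 103 in si-Control cells (log2 -0.23, limma adjusted p = 0.0177), a call lost without si-MBD5 replicate 1 or 3 or si-Control replicate 1 or 2 (limma adjusted p up to 0.0676). MAN1A1, a Golgi mannosidase of the class of MAN1B1, rose by 0.27 log2 in si-BAP1 cells (limma adjusted p = 0.00782).

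Of 14 tested genes listed for the unfolded protein response, 1 was higher and 0 lower in si-BAP1 cells, and 2 higher and 2 lower in si-MBD5 cells. Of all genes 11.7% were higher and 10.7% lower in si-BAP1 cells, and 6.76% and 8.09% in si-MBD5 cells. The gene that was higher in both was CREB3L2, an ER-anchored transcription factor, with 1590, 1651 and 1619.8 in si-BAP1 cells and 1634, 1685.5 and 1601 in si-MBD5 cells, against 1259, 1283.5 and 1213 in si-Control cells. Its log2 fold change was 0.37 (SE 0.033) in si-BAP1 and 0.39 (SE 0.033) in si-MBD5 cells, with no array of either knockdown inside the control range. ASNS, a known target of ATF4, fell by 0.17 log2 in si-MBD5 cells (limma adjusted p = 0.0106). The si-MBD5 calls of TRIB3 (0.12 log2, limma adjusted p = 0.0455) and MBTPS2 (-0.13 log2, limma adjusted p = 0.0479) lay close to the threshold. TRIB3 was lost without any single array but si-MBD5 replicate 1, and MBTPS2 without any but si-BAP1 replicate 2 and si-MBD5 replicate 2 (limma adjusted p up to 0.157 and 0.171). Both calls were also lost with no filter, the replicate block, no intensity trend or only the 2 groups compared, and the 1 other probe set of each gene did not give its call.

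CALR and PDIA3 also serve the peptide loading complex, which fills MHC class I molecules in the ER. Of 8 other tested genes listed for class I peptide loading, not all of them parts of the complex, 4 fell in si-BAP1 cells and 4 in si-MBD5 cells. None was higher in either, where 10.7% of all genes were lower in si-BAP1 and 8.09% in si-MBD5 cells. The peptide transporter subunit TAP1 read 173, 189.9 and 183 in si-BAP1 cells and 203, 206 and 206 in si-MBD5 cells, against 261, 284 and 264 in si-Control cells (log2 -0.53 and -0.37). TAPBP, the tapasin that bridges transporter and class I, fell by 0.17 log2 in si-BAP1 (limma adjusted p = 0.0227) and by 0.29 log2 in si-MBD5 cells (limma adjusted p = 0.00133). The si-BAP1 call of TAPBP was lost without si-BAP1 replicate 1 or 3 or si-Control replicate 1 or 2 (limma adjusted p up to 0.097). Of its 4 other probe sets above the filter 0 gave the call in either knockdown. HLA-C and HLA-B, whose near-identical copies can share probes, fell by 0.40 and 0.37 log2 in si-BAP1 and by 0.32 and 0.25 log2 in si-MBD5 cells. The 1 other probe set of each gave the si-BAP1 call but not the si-MBD5 call. The members CALR and PDIA3 did not fall on their brightest probe sets in either knockdown.

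**Figure D4:**
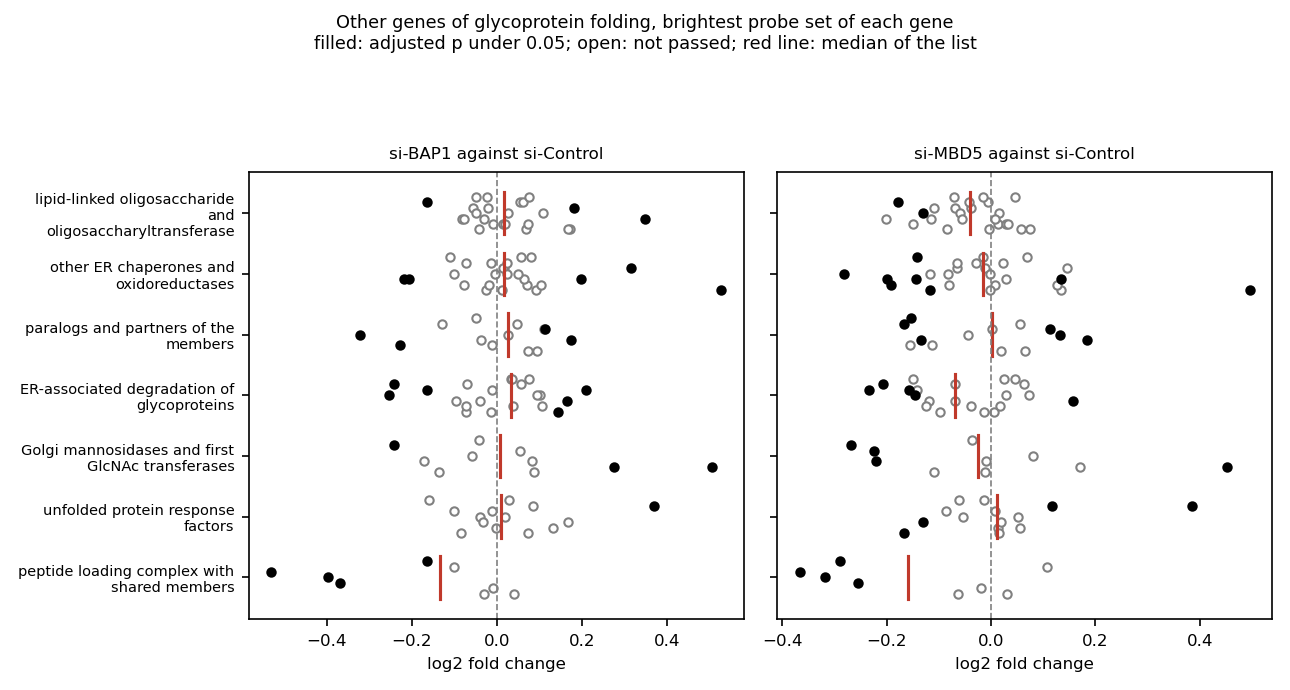
Log2 fold changes (horizontal axis) against si-Control of the other genes of glycoprotein folding, each on its brightest probe set, for si-BAP1 (left) and si-MBD5 (right) cells; filled points passed the limma test, open points did not, and red lines are list medians. The medians lie near 0 except for the peptide loading list, at -0.13 log2 in si-BAP1 and -0.16 log2 in si-MBD5 cells.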

How the data were processed

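Total RNA of 9 cultures of HCCC-9810 cells, 3 per group, was labelled with biotin from 6 ug and read on Affymetrix arrays, per the labels' protocols. The deposited values are linear intensity, 1 per probe set and array, made with MAS5 per the submitters' processing notes, which give no version. Array medians were 36.91 to 38.24, so the deposited intensity had been scaled, and no further scaling was applied. Probe sets were named from the platform annotation (44988 with 1 symbol, 1832 with several, 2473 with none), and 44961 of the probe sets with 1 symbol were matched to a RefSeq gene table. From the deposited intensity, log2(intensity + 16) was computed here.

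A model with 3 group means was fitted with limma (version 3.58.1, R version 4.3.3), whose empirical Bayes step used an intensity trend, on the 27195 probe sets with 1 symbol above the 40th percentile. The step was tested on simulated data. Each knockdown was compared with control, and the knockdowns with each other. The median SD within groups was 0.0635 log2 and the median SE of a difference 0.0527, which with 3 arrays a group sets the precision. The members and lists were chosen with earlier results of these data known, and GANAB for its rise. All member probe sets were named; from each wider list up to 4 genes with the largest change among those that passed on their brightest probe set; and the 5 genes that ran closest to GANAB. Alternatives were constants of 1 and 64, quantile normalization, a filter at the 60th percentile or none, the brightest probe set per gene, removal of _x_at and _s_at probe sets (those shared between transcripts or genes, called shared here), the replicate number as block, no trend, only the 2 groups compared, array weights, and leaving out each array. Replicate numbers were not taken to pair samples. Sequences were from RefSeq. Figures were drawn with matplotlib 3.10.9.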

Additional observations from a re-analysis of the deposited data

How the results depend on the processing

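Over 1812 recalculations of the member values, 1721 were counted as the same, 52 lost a call and 25 gained one. A further 13 moved by over 1 SD and 1 turned (GANAB 11748926_a_at between the knockdowns, -0.0017 log2 without 1 array, range -0.0017 to 0.0673). A change of sign where neither value passed was counted as the same. CALR 11715375_x_at in si-BAP1 against si-Control cells, for example, ranged from -0.0597 to 0.045 log2. In si-BAP1 cells the 9 higher member calls were 6 to 10 without single arrays (6 without si-BAP1 replicate 2 or 3 or si-Control replicate 2 or 3), 8 with no filter and 11 with array weights, and the 9 lower calls 8 to 9 without single arrays. In si-MBD5 cells the 2 higher calls became 1 with only the 2 groups compared, and 1 to 3 without single arrays. The 2 lower calls became 0 with no filter or only the 2 groups compared, 1 with no intensity trend, and 0 to 2 without single arrays. Between the knockdowns the 0 higher calls became 1 with a constant of 64 or no trend and 3 with array weights, and 0 to 2 without single arrays.

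Of all probe sets 5574 were called in si-BAP1 against si-Control, 3503 in si-MBD5 against si-Control and 2125 between the knockdowns. With the brightest probe set per gene these were 2918, 2025 and 1240, and without shared probe sets 3550, 2197 and 1308, where fewer probe sets were tested. With array weights they were 8648, 5427 and 3076; the cause was not tested. Without single arrays they ranged from 2121 to 3528 for si-MBD5 against si-Control (lowest without si-Control replicate 2) and from 1114 to 2314 between the knockdowns (lowest without si-MBD5 replicate 1). Between the knockdowns quantile normalization gave 1075 higher and 1132 lower, where the fit as reported gave 1266 and 859. On unshared probe sets DPAGT1 turned to 0.1745 and 0.1054 log2 in si-BAP1 and si-MBD5 cells, TMED10 to 0.0211 in si-BAP1 cells and UBE2J1 to 0.0143 in si-MBD5 cells.

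Same-numbered arrays correlated at -0.402 to 0.433 after removal of group means, so the numbers were not read as pairs. With the replicate block 5457, 3237 and 1895 probe sets were called, and the 8 CANX calls between the knockdowns became 7. Probe sets near the filter, such as 11715375_x_at of CALR, limit what a missed call shows.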
